A study of Mus musculus with 365 samples.

Results

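Cd79a, Cd79b, Igll1, Vpreb1, Vpreb3, Blnk, Cd72, Btk and Syk encode parts of the receptor through which early B-lineage cells signal, and of the machinery directly behind it. They were chosen by name, and all 9 are among the 23427 genes of the deposited table, of which 14814 had at least 1 read. Their reads were followed over single progenitor cells of mouse femoral bone marrow, 152 of the Ly6D+ kind and 213 of the TN kind. The Ly6D+ and the TN cells both carry the label EPLM, the name of early progenitors with lymphoid and myeloid potential. Both came from C57BL/6 mice with the Flt3Ltg transgene, which supplies extra Flt3 ligand, a growth factor of early progenitors, so no group without the transgene enters the comparison. The labels give a pool of 2 mice for each cell but no age, no promoter of the transgene, and not which pool went onto which capture chip. TN stands for triple negative in the labels, which do not name the 3 markers. Ly6D+ cells were captured on chips 4, 5 and 6 and TN cells on chips 1, 2 and 3.

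In a pro-B cell, before a light chain gene is rearranged, the new immunoglobulin heavy chain pairs with a surrogate light chain made of λ5, encoded by Igll1, and of VpreB, encoded by Vpreb1 and its near copy Vpreb2. This pre-B cell receptor reaches the membrane with the signalling pair Igα and Igβ, encoded by Cd79a and Cd79b, whose cytoplasmic tails carry tyrosine motifs. The kinase Syk binds the phosphorylated tails, the adaptor BLNK is phosphorylated by Syk, and the kinase Btk is brought to BLNK, where it acts on phospholipase Cγ2. CD72 is an inhibitory coreceptor of B cells, and VpreB3 is an endoplasmic reticulum protein of early B cells. Several of these genes are textbook targets of the B-lineage factors Ebf1 and Pax5 and of E proteins.

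The median depth per cell was higher on every Ly6D+ chip than on every TN chip, and cells were therefore thinned to 1 depth wherever shares of cells are given. Ly6D+ chips held 40, 60 and 52 cells with a median of 923865, 1000074 and 894864 gene reads per cell, and TN chips held 75, 69 and 69 cells with medians of 823684, 808034 and 750934. Single cells ranged from 267852 to 1854600 reads. Levels are given as CPM, the reads of the gene divided by the gene reads of the chip or cell, scaled to a fixed total. For chips those totals were adjusted by TMM, edgeR's normalization, and for single cells they were not. Ly6d, the gene of the sorted surface protein, stood at 3046, 2860 and 2564 CPM in the Ly6D+ chips and at 83, 167.7 and 282.7 CPM in the TN chips. Of the later B cell genes Ms4a1, Fcer2a, Cr2 and Enpep, no read was found in Ly6D+ cells, nor of Enpep in TN cells. Among genes of other lineages, 8 granulocyte and monocyte progenitor genes summed to 56.4 to 180.4 CPM in Ly6D+ chips and 1595 to 3208 CPM in TN chips. Of these 8, 6 were lower in every Ly6D+ chip. Elane and Ms4a3 were at 0 there, and Cebpe was at 0 in both populations. Conventional dendritic genes summed to 259 to 926 CPM in Ly6D+ chips and 1581 to 3752 CPM in TN chips, with 5 of 9 lower in every Ly6D+ chip and Zbtb46 at 0 there. Plasmacytoid dendritic genes summed to 1409 to 1906 CPM in Ly6D+ chips and 1147 to 1424 CPM in TN chips, with 2 of 8, Siglech and Cox6a2, higher in every Ly6D+ chip and Klk1 at 0 in both populations. Plasma cell genes summed to 132.03 to 247.6 CPM in Ly6D+ chips and 102.8 to 139.7 CPM in TN chips, with 2 of 5, Irf4 and Sdc1, higher in every Ly6D+ chip and Prdm1 at 0 in both populations. The part of these other lineages in the values below was not tested.

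In CPM, 8 of the 9 genes were higher on every Ly6D+ chip than on every TN chip, the exception being Btk, whose chip values overlapped. Such separation upwards was met by 7.64% of the 11797 genes tested. By edgeR's quasi-likelihood test on reads summed per chip, with Benjamini-Hochberg adjustment over all genes tested, 2 of the 9 genes were higher in Ly6D+ cells, Blnk and Cd72, and 0 were lower. That test called 0.0932% of all genes higher and 0.110% lower. An unadjusted p under 0.05 was reached by 5 of the 9 genes, and by 988 of all genes. DESeq2 on the same sums called 3 of the 9 higher, against 2.33% of all genes, and limma-trend on chip means of log2(CPM+1) called 7, against 1.87%. The median log2 fold change, Ly6D+ over TN, was 2.66 over the 9 genes and 0.01 over all genes tested. A chip sum alone cannot tell fewer cells with a transcript from less transcript per cell, which is why the share of cells with each gene is given beside it.

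**Figure D1:**
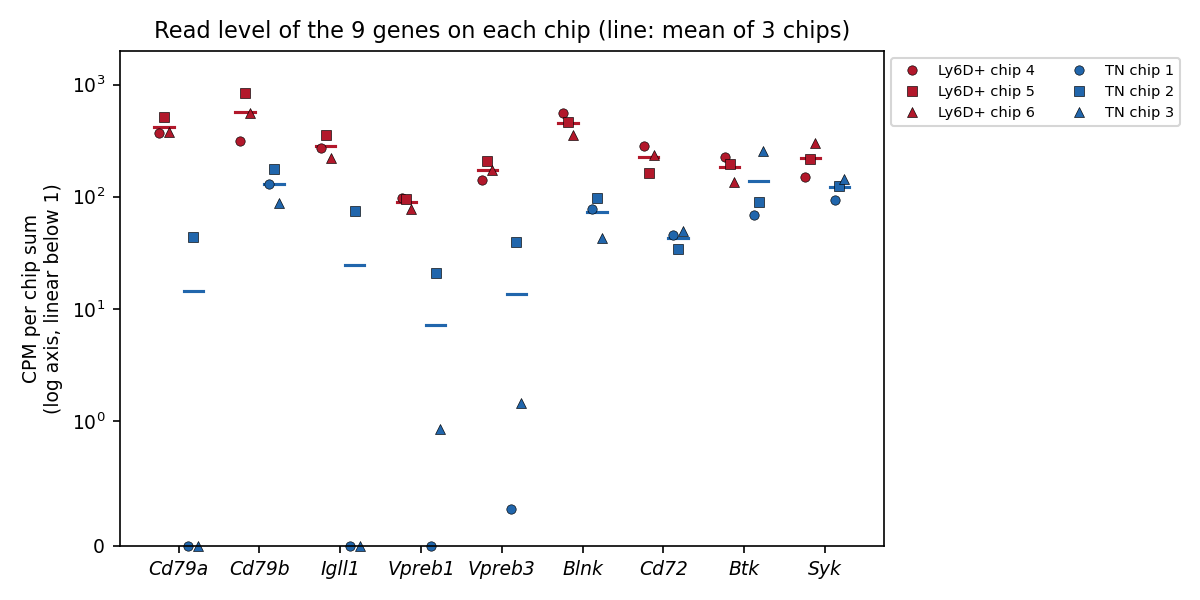
Level of each of the 9 genes in the reads of each chip, in CPM on an axis that is logarithmic above 1 and linear below; red symbols are Ly6D+ chips 4, 5 and 6, blue symbols TN chips 1, 2 and 3, and bars the mean of 3 chips. TN chip 2 is the only TN chip above 2 CPM for Cd79a, Igll1, Vpreb1 and Vpreb3, and TN chip 3 is the highest of all chips for Btk.

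**Figure D2:**
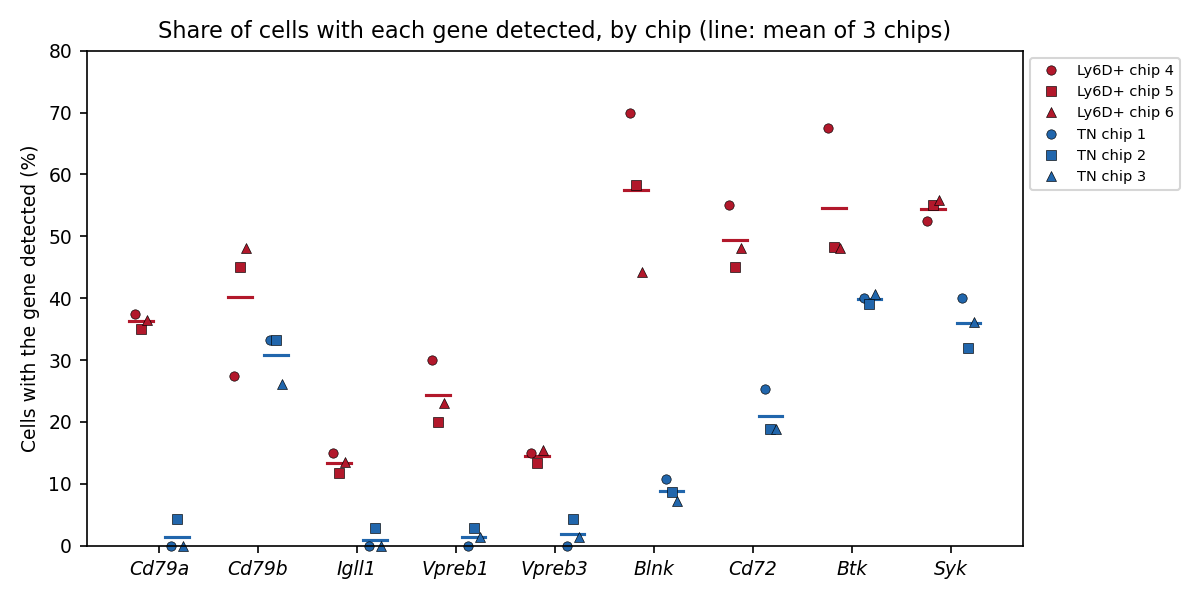
Share of the cells of each chip, in percent, with 5 or more reads of the gene after each cell was thinned to 200000 reads; red symbols are Ly6D+ chips, blue symbols TN chips, and bars the mean of 3 chips. Blnk ranges from 44.2% to 70% on Ly6D+ chips and from 7.25% to 10.7% on TN chips, while the Cd79b shares of the populations overlap.

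The promoters of 5 of the genes that varied together among Ly6D+ cells, as described further on, are shown because their start regions could be searched for the letters bound by B-lineage factors. Each is the stretch of 250 bases before the gene's start in RefSeq on GRCm38.p6, written 5′ to 3′ on the gene's own strand. Capitals mark matches to CAGGTG or CACCTG (E proteins), CAGCTG (another E-box), GAGGAA or TTCCTC (PU.1), CCCNNGGG (EBF1 core) and ATTTGCAT or ATGCAAAT (octamer).
Cd79a (chr7:24897247-24897496, plus strand): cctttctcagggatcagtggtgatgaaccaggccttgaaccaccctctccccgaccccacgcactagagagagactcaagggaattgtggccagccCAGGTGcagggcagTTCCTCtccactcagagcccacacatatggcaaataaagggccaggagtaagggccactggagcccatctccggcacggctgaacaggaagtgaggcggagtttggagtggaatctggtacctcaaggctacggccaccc
Igll1 (chr16:16863986-16864235, minus strand): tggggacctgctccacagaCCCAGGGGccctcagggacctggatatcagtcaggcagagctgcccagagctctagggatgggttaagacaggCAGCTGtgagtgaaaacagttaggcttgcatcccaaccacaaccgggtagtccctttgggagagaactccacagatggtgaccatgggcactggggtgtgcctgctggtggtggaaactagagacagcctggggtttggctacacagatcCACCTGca
Vpreb1 (chr16:16869256-16869505, minus strand): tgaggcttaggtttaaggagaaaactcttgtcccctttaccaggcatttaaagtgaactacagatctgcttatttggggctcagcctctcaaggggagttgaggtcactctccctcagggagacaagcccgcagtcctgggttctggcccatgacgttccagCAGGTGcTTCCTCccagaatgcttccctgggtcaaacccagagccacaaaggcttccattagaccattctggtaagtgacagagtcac
Vpreb3 (chr10:75948050-75948299, plus strand): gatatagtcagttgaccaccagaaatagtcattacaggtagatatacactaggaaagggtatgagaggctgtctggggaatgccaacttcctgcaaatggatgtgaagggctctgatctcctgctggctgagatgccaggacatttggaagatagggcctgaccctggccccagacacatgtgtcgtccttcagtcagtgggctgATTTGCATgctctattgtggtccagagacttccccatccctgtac
Blnk (chr19:40994222-40994471, minus strand): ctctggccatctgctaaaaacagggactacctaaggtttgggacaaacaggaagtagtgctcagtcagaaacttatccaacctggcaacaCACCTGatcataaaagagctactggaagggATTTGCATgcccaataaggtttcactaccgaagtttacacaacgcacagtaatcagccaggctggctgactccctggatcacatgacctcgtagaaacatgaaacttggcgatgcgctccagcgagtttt
The table of promoters held 8 of the 9 genes. Syk had 2 starts there and so 2 windows. A gene was counted if any of its windows matched, whereas the shares over all genes count single windows. CAGGTG or its complement stood in the windows of 5 of those 8, against 17.2% of 32851 windows of the same length over all genes, in Cd79a at position -154 from the start, in Vpreb1 at -88, in Igll1 at -8 and in Blnk at -160, and in Syk. GAGGAA or its complement stood in 4 of 8, among them Cd79a at -140, Vpreb1 at -81 and Cd72 at -47, against 23.3% of all windows. The octamer stood in 2 of 8, Vpreb3 at -45 and Blnk at -130, against 1.60% of all windows. CCCNNGGG stood in 1 of 8, as CCCAGGGG at -231 in Igll1, against 11.8%, and CAGCTG in 1 of 8, at -158 in Igll1, against 13%. The Btk window held none of these letters. These are matches of letters only, and the matches were not tested against the read counts.

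Among the surrogate light chain genes, Igll1 (Entrez 16136) was read at 270, 357 and 221 CPM on Ly6D+ chips 4, 5 and 6, and at 0, 74 and 0 CPM on TN chips 1, 2 and 3. Every Ly6D+ chip was above every TN chip, and all TN reads came from chip 2. The fitted log2 fold change was 3.52 ± 2.17 (SE, 3 chips each) and missed the threshold of 0.05 by edgeR (adjusted p = 0.730). λ5 transcript was a minority feature of Ly6D+ cells too. Igll1 was detected, meaning 5 or more reads after thinning, in 15%, 11.7% and 13.5% of the cells of the Ly6D+ chips and in 0%, 2.90% and 0% of the TN chips, or in 20 against 2 cells. Cells that had it had much of it: the 20 Ly6D+ cells spanned 56.5 to 7128 CPM with a median of 1437, and the 2 TN cells stood at 6439 and 710 CPM.

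Vpreb1 (Entrez 22362) had 97.8, 94.8 and 77.9 CPM on the Ly6D+ chips and 0, 20.8 and 0.939 CPM on the TN chips. The groups did not overlap, the log2 fold change was 3.64 ± 1.74, and edgeR's adjusted p was 0.642. The gene was detected in 30%, 20% and 23.1% of cells on Ly6D+ chips, against 0%, 2.90% and 1.45% on TN chips. Vpreb1 was thus found in more Ly6D+ cells than Igll1, 36 against 20, but at a lower level where found, with a median of 179.3 CPM in the detected Ly6D+ cells. Its reads are uncertain, since transcripts of Vpreb1 and Vpreb2 were 97.4% identical over 759 aligned bases and the rule that divided reads between them was not given in the sources used here. Vpreb2 had 80.2, 44.1 and 48 CPM on Ly6D+ chips and 0, 4.54 and 0.417 CPM on TN chips, and its adjusted p by edgeR was 0.398. Of 36 Ly6D+ cells with Vpreb1 and 32 with Vpreb2, 30 had both.

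Vpreb3 (Entrez 22364) followed the same layout. Per length of the gene, its level was 235, 346 and 286 CPM per kilobase on Ly6D+ chips and 0.485, 65.1 and 2.39 CPM per kilobase on TN chips. Again every Ly6D+ chip was above every TN chip, and chip 2 stood far above the other TN chips. The log2 fold change was 3.67 ± 1.46 (adjusted p = 0.524 by edgeR). Detection was 15%, 13.3% and 15.4% on Ly6D+ chips and 0%, 4.35% and 1.45% on TN chips, or 22 against 4 cells. The detected Ly6D+ cells had a median of 1105 CPM and a highest value of 3205 CPM. Vpreb3 overlaps the gene Gm16221 in RefSeq, and without strand the reads of the 2 cannot be told apart.

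Of the signalling pair, Cd79a (Entrez 12518) had 372, 509 and 375 CPM on the Ly6D+ chips and 0, 43.6 and 0 CPM on the TN chips. TN chips 1 and 3 together, with 75 and 69 cells, held 0 reads of Cd79a and 0 of Igll1. With TN chip 2 included, the log2 fold change of Cd79a was 4.85 ± 2.17 and the adjusted p by edgeR 0.610. TN chips 1 and 3 held 45 reads of Vpreb1, in 1 cell, and 88 reads of Vpreb3, in 5 cells. Detection of Cd79a was even over the Ly6D+ chips, at 37.5%, 35% and 36.5% of cells, and it was 0%, 4.35% and 0% on TN chips (55 against 3 cells). Ly6D+ cells with Cd79a spanned 48.8 to 3963 CPM around a median of 737 CPM.

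Cd79b (Entrez 15985) behaved otherwise. Its levels were 313, 840 and 553 CPM on Ly6D+ chips and 129.6, 175.4 and 87.8 CPM on TN chips, without overlap, and its log2 fold change of 2.12 ± 0.40 did not pass (adjusted p = 0.134 by edgeR). The share of cells with Cd79b overlapped, at 27.5%, 45% and 48.1% on Ly6D+ chips and 33.3%, 33.3% and 26.1% on TN chips (exact permutation p = 0.300, two-sided). So 63 Ly6D+ cells and 66 TN cells had Cd79b, and the cells that had it differed in amount: a median of 643 CPM in the Ly6D+ cells and 269 CPM in the TN cells. Ly6D+ chip 4, with the lowest share, had the highest such median, 1151 CPM. In TN cells Cd79b was also the only receptor gene of the group found outside a handful of cells, since Cd79a was detected in 3 cells and Igll1 in 2.

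CD72 belongs to the inhibitory side of the receptor, and its gene (Entrez 12517) had 284, 163.1 and 234 CPM on Ly6D+ chips and 46, 34.2 and 49.2 CPM on TN chips. All Ly6D+ chips were above all TN chips, and the TN chips were close to each other. Cd72 rose 5.26-fold (log2 fold change 2.40 ± 0.32, adjusted p = 0.0396 by edgeR). Both the share of cells and the amount per cell were larger: 55%, 45% and 48.1% of Ly6D+ cells against 25.3%, 18.8% and 18.8% of TN cells, with a median of 336 CPM in Ly6D+ cells that had it and 121.6 CPM in TN cells that had it. Cd72 overlaps Tesk1 in RefSeq, so some of its unstranded reads could be of that gene.

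The adaptor gene Blnk (Entrez 17060) had 559, 461 and 354 CPM on Ly6D+ chips and 77.8, 97.8 and 42.5 CPM on TN chips. The groups were far apart, and Blnk rose 6.30-fold (log2 fold change 2.66 ± 0.35, adjusted p = 0.0396 by edgeR). It was the gene of the 9 with the largest gap in the share of cells, 70%, 58.3% and 44.2% on Ly6D+ chips against 10.7%, 8.70% and 7.25% on TN chips, or 86 against 19 cells. Where detected it was read at a median of 481 CPM in Ly6D+ cells and 374 CPM in TN cells. The calls of Blnk and Cd72 rest on all 6 chips: with any 1 chip left out, Blnk's adjusted p by edgeR was 0.0835 to 0.165, and that of Cd72 0.0403 to 0.173, under 0.05 only without Ly6D+ chip 5.

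The kinases were the members found in most TN cells. Syk (Entrez 20963) had 150.8, 214.8 and 298 CPM on Ly6D+ chips and 94.1, 125.2 and 144.5 CPM on TN chips, which did not overlap but came close, and its log2 fold change of 0.87 ± 0.32 did not pass (adjusted p = 0.462 by edgeR). Its share of cells was 52.5%, 55% and 55.8% on Ly6D+ chips and 40%, 31.9% and 36.2% on TN chips. Where detected, its median was 159.2 CPM in Ly6D+ cells and 216 CPM in TN cells.

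Btk (Entrez 12229), the kinase lost in X-linked agammaglobulinaemia, had 225, 196.2 and 135.2 CPM on Ly6D+ chips and 69, 89.6 and 258 CPM on TN chips. The values overlapped because TN chip 3 was the highest of all 6. The log2 fold change was 0.42 ± 0.49 (adjusted p = 0.894 by edgeR). In the share of cells Btk did separate, at 67.5%, 48.3% and 48.1% of Ly6D+ cells against 40%, 39.1% and 40.6% of TN cells. In TN cells it was the member found most often, in 85 of 213 cells. TN chip 3 stood out in amount rather than share: its cells with Btk had a median of 387 CPM, those of TN chips 1 and 2 medians of 84.1 and 93.2 CPM.

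Over all 9 genes, 8 had a larger share of cells on every Ly6D+ chip than on every TN chip, which held for 10.4% of all genes tested; 0 had a smaller one on every Ly6D+ chip, which held for 6.08%. Each of those 8 comparisons had an exact two-sided permutation p of 0.1, the smallest that 3 chips against 3 can give, so no share could pass 0.05 in this design. The same 8 genes separated with detection set at 1 or at 20 reads.

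Levels can be set beside each other only per length, so CPM was divided by the gene length in kilobases from the deposited table. On Ly6D+ chips the order of mean levels was Cd79b (475 ± 221 CPM per kilobase, SD, n = 3 chips), Igll1 (325 ± 78.9), Cd79a (315 ± 59.1), Vpreb3 (289 ± 55.2), Blnk (219 ± 48.8), Cd72 (151.02 ± 40.5), Vpreb1 (117.4 ± 14), Btk (73.2 ± 18.1) and Syk (42 ± 14). Neighbours in that order had overlapping chip values from Cd79b down to Vpreb1. Vpreb1 was above Btk on every chip, at 101.4 to 127.3 against 53.3 to 88.8 CPM per kilobase, and Btk overlapped Syk, which ranged from 28.6 to 56.5. The TN order was another: Cd79b led (109.3 ± 36.6 CPM per kilobase), followed by Btk (54.7 ± 40.9), Blnk (34.7 ± 13.3), Cd72 (28.7 ± 5.26), Igll1 (28.4 ± 49.1), Syk (23 ± 4.83), Vpreb3 (22.7 ± 36.8), Cd79a (10.9 ± 19) and Vpreb1 (9.42 ± 15.3). The 4 genes whose SD exceeded their TN mean are those whose TN reads lay mostly on chip 2.

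Those chip 2 reads lay in few cells. A TN cell of 598520 reads had 6439 CPM of Igll1, 3029 of Cd79a, 4361 of Cd79b, 1647 of Vpreb1, 2478 of Vpreb3, 6020 of Blnk and 2312 of Syk, with Cd72 at 0 and Btk at 3.34 CPM. A second cell of that chip, of 447879 reads, had 710 CPM of Igll1, 1190 of Cd79a, 2976 of Cd79b, 413 of Vpreb1, 1253 of Vpreb3, 817 of Blnk and 534 of Cd72, with Btk at 0 and Syk at 2.23 CPM. These were the only TN cells with more than 4 of the 9 genes detected, and each had 7. Both also held Ebf1, at 9472 and 2597 CPM, and the lymphoid polymerase gene Dntt, at 1504 and 1331 CPM, with Mpo, H2-Aa, Siglech and Ms4a1 at 0 in both. They differed in Ly6d, which was at 0 in the first and at 136.2 CPM in the second, and in Pax5, at 423 CPM and 0. Together the pair held 100% of the Igll1 and of the Vpreb1 reads of TN chip 2, 95.5% of Cd79a, 92.5% of Vpreb3 and 72% of Blnk, but 39.9% of Cd79b, 19.6% of Syk, 12.4% of Cd72 and 0.0396% of Btk.

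The first of these cells was left out as the TN cell with most Igll1 reads. Without it the edgeR log2 fold changes were larger, at 7.21 for Igll1, 6.76 for Cd79a, 5.99 for Vpreb1 and 5.14 for Vpreb3. None of the 4 passed by edgeR (adjusted p = 0.257, 0.331, 0.220 and 0.209 in that order). Leaving out both cells was chosen after seeing the data. It raised the members called by edgeR to 4, with Igll1 at an adjusted p of 0.00170, Vpreb3 at 0.0268, Blnk at 0.0274 and Cd72 at 0.0360, while Cd79b (0.0570), Cd79a (0.102) and Vpreb1 (0.166) did not pass. Without TN chip 2 as a whole, Cd79a (0.00192), Igll1 (0.00280) and Vpreb3 (0.0404) passed, and Blnk (0.0924) and Cd72 (0.173) did not. All these removals were made on the TN side only. With the highest cell of each chip left out, in both populations, Blnk (adjusted p = 0.00840 by edgeR) and Cd72 (0.0410) passed. In that setting Igll1 (0.287), Cd79a (0.352), Vpreb1 (0.253), Vpreb3 (0.233) and Cd79b (0.138) did not pass.

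**Figure D3:**
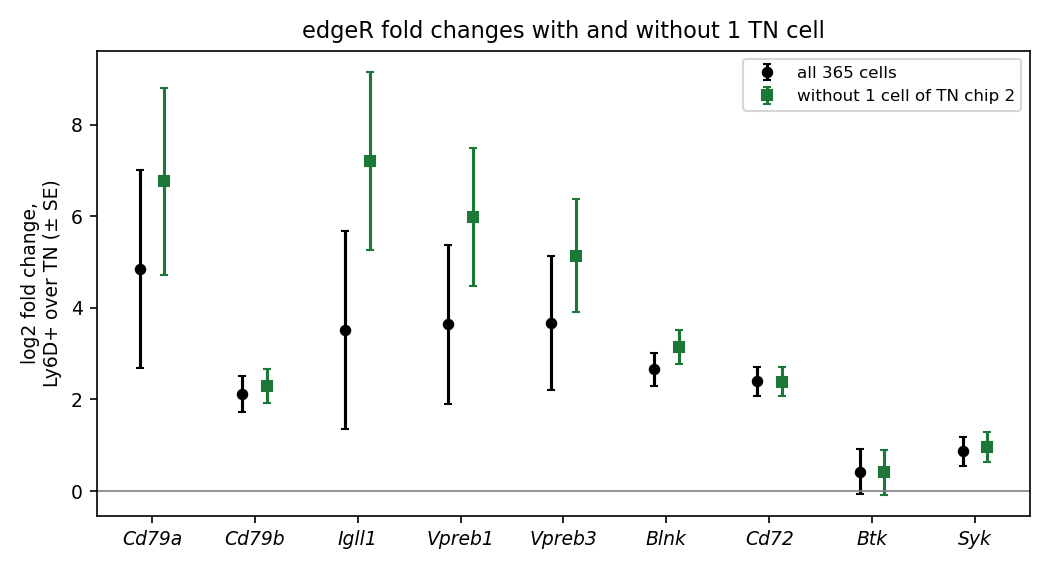
Log2 fold change of each gene, Ly6D+ over TN, by edgeR on 6 chip sums, with its standard error; black circles use all cells and green squares leave out 1 cell of TN chip 2. That cell had the most Igll1 reads of the TN cells. Leaving it out moves Igll1 from 3.52 to 7.21 and leaves Cd72, at 2.40 and 2.39, nearly in place.

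The number of the 9 genes found in a cell separated the populations as a whole. A Ly6D+ cell had 3.70, 3.32 and 3.33 genes detected on average on chips 4, 5 and 6, and a TN cell 1.49, 1.46 and 1.32 on chips 1, 2 and 3. Cells with none of the 9 genes detected numbered 4 in the Ly6D+ population and 51 in the TN population. At the other end, 5 or more were detected in 37 Ly6D+ cells, at 30%, 20% and 25% of the cells of the chips, and in 2 TN cells, both on chip 2. All 9 were found together in 2 Ly6D+ cells, 1 on chip 5 and 1 on chip 6. At the low end, 60 Ly6D+ cells and 180 TN cells had 2 or fewer of the genes, so the Ly6D+ population was spread over the whole range.

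**Figure D4:**
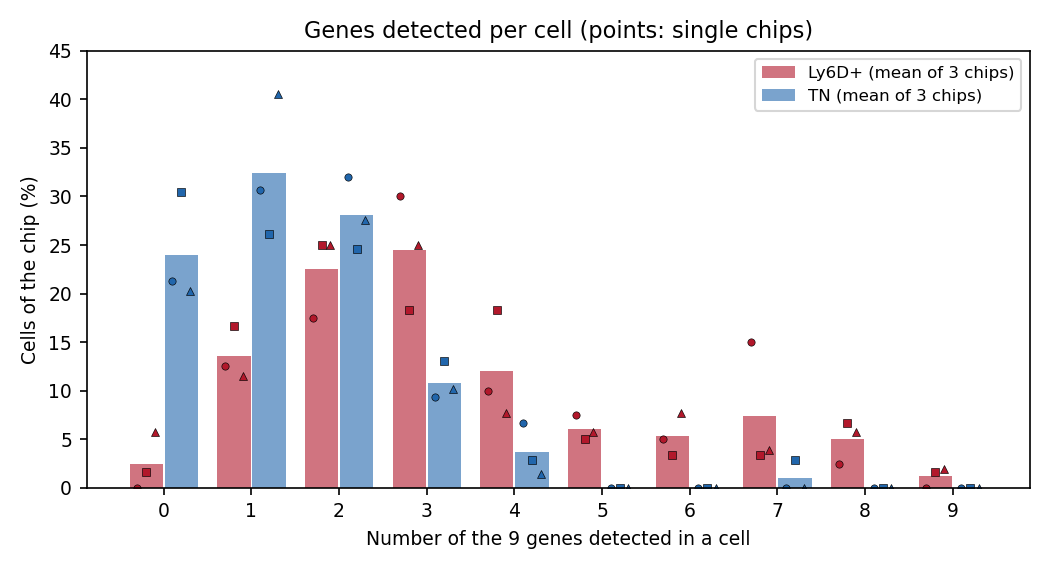
Share of cells, in percent of each chip, by how many of the 9 genes were detected in the cell; red bars are the mean of 3 Ly6D+ chips, blue bars the mean of 3 TN chips, and points the single chips. Ly6D+ cells reach from 0 to 9 genes, and no TN cell lies above 4 except 2 cells of chip 2 at 7.

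Within the Ly6D+ population the genes did not vary as 1 block. Spearman correlations between cells were computed inside each chip and averaged over the 3 Ly6D+ chips (152 cells), and are a description: the cells of a chip share a capture, and each cell's values share a library. Igll1 and Vpreb3 had the highest, at 0.83, 0.80 and 0.67 on chips 4, 5 and 6. Cd79a correlated with Vpreb3 at 0.64 ± 0.01 (mean ± SD of 3 chips), Igll1 with Vpreb1 at 0.62 ± 0.07, and Cd79a with its partner Cd79b at 0.55 ± 0.03. Over the 15 pairs among Cd79a, Cd79b, Igll1, Vpreb1, Vpreb3 and Blnk, a grouping made after the values were seen, the mean correlation ran from 0.29 to 0.76 with a median of 0.53. The lowest of them was Cd79b with Blnk, at 0.29 ± 0.18. Pairs that include Cd72, Btk or Syk ran from -0.02 to 0.20, with a median of 0.07 over 21 pairs. Blnk stood with the receptor genes, whereas the kinases that flank it in the pathway did not, and neither did Cd72, although Cd72 was the other gene that passed the test between the populations.

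**Figure D5:**
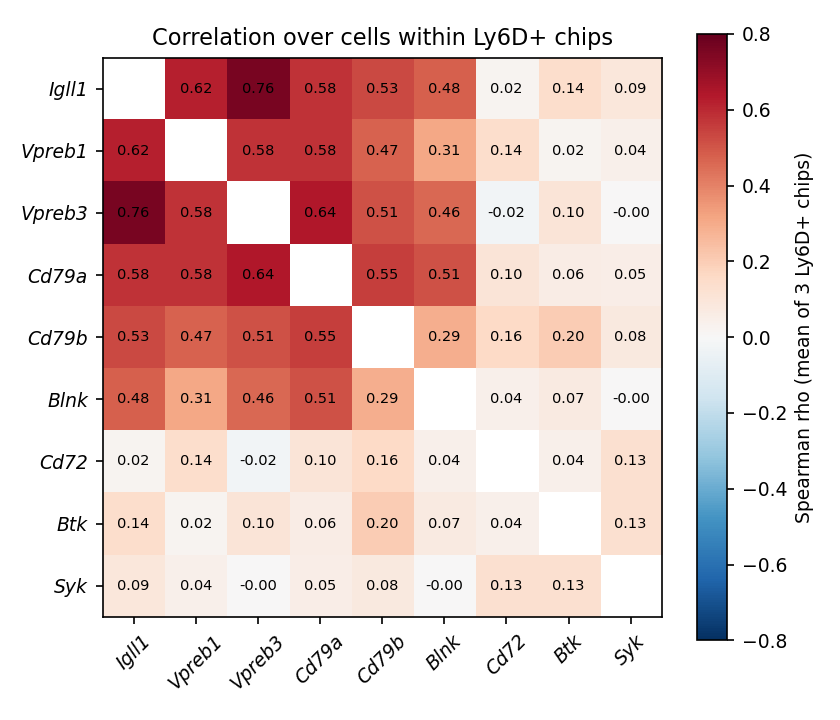
Spearman correlation between each pair of the 9 genes over the cells of a Ly6D+ chip, as the mean of 3 chips, on a colour scale from blue (negative) to red (positive). Igll1, Vpreb1, Vpreb3, Cd79a, Cd79b and Blnk form the red corner, from 0.29 to 0.76, and Cd72, Btk and Syk lie between -0.02 and 0.20 with every gene.

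The overlap of cells showed an inclusion. Every one of the 20 Ly6D+ cells with Igll1, and every one of the 22 with Vpreb3, also had Cd79a, which is 20 and 22 of the 55 cells with Cd79a. Vpreb1 was less strict, with 27 of its 36 cells among those 55. Cd79b shared 38 of its 63 cells, and Blnk 43 of its 86. For the genes outside the corner, 31 of 74 cells with Cd72, 31 of 81 with Btk and 29 of 83 with Syk had Cd79a. Thus 43 Ly6D+ cells had Blnk without detected Cd79a. Non-detection in a single cell does not show absence, since capture of a transcript can fail.

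Ebf1, the factor at the head of the B-lineage programme, was read at 416, 293 and 422 CPM on Ly6D+ chips and at 15.9, 131.98 and 4.76 CPM on TN chips, without overlap (log2 fold change 2.89 ± 1.03, adjusted p = 0.447 by edgeR). Without the pair of TN cells described above it passed, at an adjusted p of 0.00890 by edgeR. That pair was picked after seeing the data and held Ebf1 at 9472 and 2597 CPM. Leaving it out lowers the TN level of Ebf1 by choice, so that fit cannot decide whether the populations differ. With the highest cell of each chip left out, in both populations, Ebf1 did not pass (adjusted p = 0.0573 by edgeR). It was detected in 65 Ly6D+ and 8 TN cells, and 40 of those 65 were among the 55 with Cd79a. Its correlation over Ly6D+ cells was 0.54 ± 0.22 with Cd79a, 0.50 with Igll1 and with Vpreb3, 0.46 with Blnk, 0.45 with Cd79b and 0.36 with Vpreb1, against 0.10 with Cd72, 0.13 with Btk and 0.03 with Syk. Pax5, which follows Ebf1 in B-lineage commitment, was close to absent, at 2.58, 3.28 and 0.105 CPM on Ly6D+ chips and 0, 4.49 and 0 CPM on TN chips, with 4 Ly6D+ cells and 1 TN cell detected. Of 12 regulator genes tested, 0 were called higher and 1 lower, against 0.0932% and 0.110% of all genes tested. The gene called lower was Ikzf3, which had reads in 0 Ly6D+ cells and 5 TN cells (adjusted p = 0.0449 by edgeR). That call was lost with any 1 chip left out (adjusted p = 0.0564 to 0.193 by edgeR) and by limma-trend (0.177). In chip CPM without overlap, 7 of the 12 regulators were higher and 2 lower in Ly6D+ cells, against 7.64% and 7.75% of all genes tested.

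The levels of the same 6 genes also moved with the number of genes detected in the cell. Over Ly6D+ cells their correlation with the number of genes detected in the cell was negative, from -0.47 ± 0.06 for Cd79a and -0.44 ± 0.12 for Igll1, through -0.40 ± 0.19 for Vpreb3 and -0.37 ± 0.23 for Blnk, to -0.23 ± 0.10 for Cd79b and -0.21 ± 0.11 for Vpreb1. For Cd72, Btk and Syk it was 0.02, 0.11 and 0.01. With the total reads of the cell all 9 genes lay between -0.15 and 0.21. The part of the number of genes per cell in the correlations was not tested, nor was what sets that number. Correlation with Ly6d itself was -0.30 to 0.13 over the 9 genes. In TN cells, where only Cd79b, Cd72, Btk, Syk and Blnk were found often enough, pairs lay between -0.00 and 0.23, with Cd79b and Blnk the highest at 0.23 ± 0.07.

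The genes most like the 9 were sought among 4734 genes, by their correlation with the mean log2(CPM+1) of the 9 over Ly6D+ cells, with the same sign on 3 chips. Vpreb2 came first (0.63 ± 0.09), followed by Cecr2 (0.60 ± 0.05), the recombinase gene Rag1 (0.60 ± 0.01), Ebf1 (0.56 ± 0.15), the factor gene Foxo1 (0.53 ± 0.07), Rag2 (0.50 ± 0.10), Mzb1 (0.50 ± 0.05), Atp1b3 (0.46 ± 0.23), Sdc4 (0.45 ± 0.02) and Arl5c (0.44 ± 0.03). The median over all genes compared was -0.06 and the 95th percentile 0.14. The place of Vpreb2 is uncertain, since its near copy Vpreb1 is among the 9 genes and the rule dividing their reads was not given. Vpreb1 and Vpreb2 correlated at 0.96 ± 0.04.

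Beyond the 9 genes, a list of 48 further genes of B cell receptor signalling was followed, of which 46 were in the table and 44 were tested; Ighm and Igkc were not analysed here. None passed edgeR's test in either direction, which called 0.203% of all genes. By that test 13 had an unadjusted p under 0.05, against 988 of the 11797 genes tested. DESeq2 called 13, of which 9 were higher, and limma-trend 12, of which 10 were higher. Over all genes DESeq2 called 4.90% and limma-trend 2.76% in either direction. Their median log2 fold change was 0.18, and 11 of the 44 were higher and 4 lower on every Ly6D+ chip, against 7.64% and 7.75% of all genes. By role, separation upwards was found in 4 of 7 receptor and coreceptor genes, 4 of 11 kinases and phosphatases, 1 of 14 adaptors and exchange factors and 2 of 12 effectors. Adaptors had 3 of the 4 genes lower on every Ly6D+ chip and a median of -0.29.

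Nearest to the threshold was Blk, a Src-family kinase of B cells that phosphorylates the tails of Igα and Igβ, with 145.5, 158.5 and 202.4 CPM on Ly6D+ chips and 0.477, 5.36 and 1.94 CPM on TN chips. The groups were wide apart, and the log2 fold change was 6.03 ± 0.87 (adjusted p = 0.0502 by edgeR). Lck, better known as the Src-family kinase of T cells, had 571, 763 and 475 CPM on Ly6D+ chips and 228, 174.4 and 107.3 CPM on TN chips (1.83 ± 0.32, adjusted p = 0.0972 by edgeR), with a mean share of cells of 70.8% on Ly6D+ chips and 30% on TN chips. Prkcb, a protein kinase C of the pathway, had 75, 114.1 and 179.6 CPM on Ly6D+ chips and 33.7, 37.8 and 28.9 CPM on TN chips (1.88 ± 0.41, adjusted p = 0.185 by edgeR). The coreceptor gene Cd81 (1.25 ± 0.31) and Inpp5d (0.97 ± 0.24), which encodes the phosphatase SHIP1, both had chip values without overlap and an adjusted p of 0.220 by edgeR. Lcp2 encodes SLP-76, the relative of BLNK used in T and myeloid cells, and lay on the other side, at 20.9, 39.1 and 23.2 CPM on Ly6D+ chips and 91, 96 and 91.6 CPM on TN chips (-1.74 ± 0.40, adjusted p = 0.198 by edgeR). The log2 fold changes of Blnk and Lcp2 thus had opposite signs, and that of Blnk passed the test while that of Lcp2 did not.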

How the data were processed

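The authors deposited raw read counts per gene and cell, with a column of gene lengths (in bases) that was used for levels per kilobase. Per the submitters' processing notes, the build is mm9 and a tool is R 3.2.0; the aligner and the counter were not given in the sources used here. On cDNA, the labels' protocols say that it was made on Fluidigm C1 chips by template switching (SMARTer) and sequenced as Nextera XT libraries, which carry no molecular identifiers and no strand, so intervals and floors cover counting error only. The series' design text counts 178 captured Ly6D+ and 232 captured TN cells, of which a filter on mapped reads (60%), reads and detected genes (800) left 152 and 213; the poorest cell of the table has 854 genes with a read. How doublets were handled was not given in the sources used here; none were called. Symbols were matched by Entrez number to RefSeq (GRCm38.p6, names and promoters only) for 23334 genes, and 93 had none; these rows hold 0.906% of reads.

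Per chip, the counts of its cells were added up, and the sums went into edgeR 4.0.16, run in R 4.3.3 (quasi-likelihood, TMM, filterByExpr, Benjamini-Hochberg over 11797 genes, adjusted p under 0.05). CPM of chips uses TMM-scaled library sizes of the genes tested, and CPM of single cells uses the plain total of the cell. Each chip holds 1 population, so chip and population cannot be told apart, and since the labels tie no mice to chips, p-values measure no more than the spread between chips, and that may be technical. For shares of cells, each cell was thinned to 200000 reads and a gene called detected at 5 reads (25 CPM); an exact two-sided permutation test compared chip shares. Correlations used log2(CPM+1) of all reads. Alternatives were DESeq2 1.42.0 (test and size factors), limma 3.58.1 on chip means of log2(CPM+1), no filter on low counts, other detection limits and thinning, single cells or chips left out. The fits were tested on simulated data.

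All 9 genes are named. Of the 48 further genes, those called are named and otherwise up to 6 by absolute log2 fold change, with no overlap of chips and detection in 20% of cells of the higher population. Of the 12 regulators, Ebf1, Pax5 and called genes are named. The 10 genes most alike were detected in 20% or more of Ly6D+ cells. The 9 genes and the lists were chosen with earlier results of these data known. Some genes of the lists are not reported here.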

Additional observations from a re-analysis of the deposited data

How the results depend on the processing

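The count of all genes called, 24 by edgeR's quasi-likelihood test, was 561 by DESeq2, 326 by limma-trend on chip means of log2(CPM+1), and 2 to 23 with 1 chip left out. Of the 9 genes, 2 were called; limma-trend called 7 (all but Cd79b and Btk), and DESeq2 called 3 (Blnk, Cd72 and Cd79b). Without the pair of TN cells with 7 of the genes, a setting chosen from these genes after seeing the data, 4 were called. Without the highest cell of each chip 2 were called, Blnk and Cd72, and with 1 chip left out 0 to 3. Of the further signalling genes, 0 were called; 1 was called with DESeq2's size factors in edgeR, 1 without a filter on low counts and 1 without the TN cell with most Igll1 reads, 2 without both TN cells, 13 by DESeq2, 12 by limma-trend and 0 to 2 with 1 chip left out. Blk passed in 7 of 13 settings. Mean genes of the 9 detected per cell were 3.45 in Ly6D+ and 1.43 in TN cells, 4.10 and 1.75 with detection at 1 read, and 2.59 and 0.939 at 20 reads. The median correlation of 0.14 over pairs was 0.15 to 0.19 with a Ly6D+ chip left out. The log2 fold change of Pax5, 0.41, reversed to -0.18 when Ly6D+ chip 5 was left out, to -0.17 when TN chip 1 was and to -0.18 when TN chip 3 was, and was at least 6.18, against 3 reads over the remaining TN chips, when TN chip 2 was. No fold change of the 9 genes turned sign in 13 settings, nor did any of 90 recomputed differences in the share of cells. The cause of these changes was not tested. No paired analysis was possible because the chips of the populations are numbered 4 to 6 and 1 to 3 and share no number.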

Other observations

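Reads of single cells weighed unevenly on the chip sums. The cell with most reads of a gene held 8.58% to 39.8% of that gene's reads on each Ly6D+ chip, Cd72 on chip 5 being the lowest and Syk on chip 4 the highest. On TN chip 2 the leading cell held 92.4% of Igll1, 84.2% of Vpreb1, 73.8% of Cd79a, 67.1% of Vpreb3 and 65.4% of Blnk, and on TN chips 1 and 3 the leading cell held 35.7% and 52.8% of Blnk and 84.2% and 89.9% of Vpreb3. On TN chip 3 it held 47.1% of Cd72 and all reads of Vpreb1. The high Btk value of TN chip 3 was not of this kind, since its leading cell held 16.2% of the 12356 reads.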
